A study of Mus musculus with 12 samples.

Results

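Mature adipocytes and stromal vascular cells of wild-type inguinal fat were compared across all genes of the deposited table that reached 1 CPM (counts scaled to 1000000 per library) in at least 3 of the 6 wild-type libraries. That rule, which uses the level of a gene and not its difference between the fractions, kept 13745 of the 16670 genes listed. The mice were female C57BL/6, with the genotype Kdm5c+/+ (WT). The labels name no treatment, and they give no age. Inguinal fat, a white depot under the skin, was pooled from 2 mice, digested with collagenase and spun, after which the floating layer was taken as the mature adipocyte fraction and the pellet as the stromal vascular fraction. Each fraction gave 3 libraries, numbered 1 to 3, and a shared number was taken to mark a shared pool of mice. The other 6 of the 12 libraries came from mice labelled Kdm5c+/- and are used only as a further set of pools, set beside the wild-type comparison. Neither fraction was sorted by a marker, so each is a mixture set by buoyancy.

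White adipocytes store triglyceride in a single large droplet, take up glucose and fatty acids under insulin, release fatty acids when catecholamines act on their surface receptors, and secrete hormones such as leptin and adiponectin. The stromal vascular pellet holds the remaining cells of the depot: fibroblast-like progenitors that can become adipocytes, endothelial cells, pericytes and smooth muscle of vessels, macrophages and other leukocytes, nerve-associated cells and, in female inguinal fat, epithelium of the mammary gland and cells of the inguinal lymph node. Because the samples are bulk RNA, fewer cells of a type and less RNA per cell cannot be told apart anywhere in what follows.

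The 6 libraries held 22272866 to 29434125 reads over the genes listed, so that 3 reads came to 0.102 to 0.135 CPM. Together, the 10 top genes held 15.7% to 19.3% of the reads of a mature adipocyte library and 5.77% to 6.74% of those of a stromal vascular library. Across genes, log2(CPM + 1) correlated at 0.989 to 0.994 between adipocyte libraries, 0.988 to 0.991 between stromal vascular libraries and 0.671 to 0.713 between fractions. Differences are given as log2(CPM + 1) of mature adipocytes minus stromal vascular cells, with their standard error, from limma with Benjamini-Hochberg adjustment over all 13745 genes (called at an adjusted p under 0.05). This scale understates the change of genes with low levels.

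Of the genes tested, 11413 (83.0%) were called: 3729 (27.1%) toward mature adipocytes and 7684 (55.9%) toward the stromal vascular fraction. Counts of list members given below are to be read beside these shares. The 3 libraries of one fraction lay wholly outside those of the other for 11753 genes (85.5%), with adipocytes higher for 3876 (28.2%) and stromal vascular cells higher for 7877 (57.3%). The median gene differed by -0.44, and this centre moved with the scaling, by 0.40 to 0.54 on the log2 scale under median-of-ratios scaling, quantile normalization, edgeR and DESeq2. Adipocyte-high calls then numbered 5353 to 6159 and stromal-high calls 5098 to 5820, so that small differences in favour of the stromal fraction depend on the scaling. Under all 5 scalings 8522 genes (62.0%) were called in the same direction, 3725 (27.1%) with adipocytes higher and 4797 (34.9%) with stromal vascular cells higher. Every called gene named below is among these 8522 unless it is said not to be. Another 552 genes were called one way under some scalings and the other way under others. A gene given below as not called was not called in the fit on CPM. Some of these genes were called under other scalings, as listed near the end for differences that kept their sign. Genes not called are thus not shown to be equal between the fractions. Most large differences favoured the stromal pellet: mean CPM was at least 10 times as high in adipocytes for 371 called genes and in stromal vascular cells for 2455, and at least 50 times as high for 54 and 706.

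**Figure D1:**
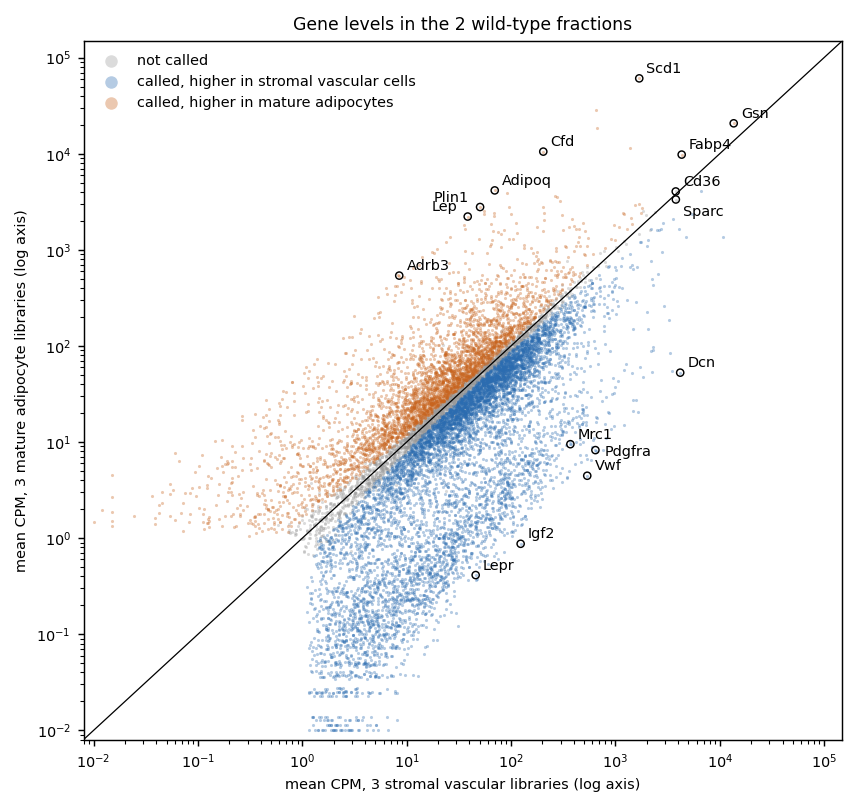
Mean CPM of each of the 13745 genes in the 3 stromal vascular libraries (horizontal, log axis) and in the 3 mature adipocyte libraries (vertical, log axis), coloured by the limma call; means under 0.01 are drawn at 0.01 and the line marks equal levels. Adipoq, Plin1, Cfd, Lep, Adrb3 and Scd1 lie far above the line, Vwf, Pdgfra, Mrc1, Dcn, Igf2 and Lepr far below it, and Cd36 and Sparc close to it.

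The defining markers went with the fraction labels in every library. Adipoq, which encodes adiponectin, stood at 4169, 4299.9 and 3993 CPM in adipocyte libraries 1, 2 and 3 and at 105, 45.4 and 59.5 CPM in the stromal vascular libraries of the same numbers, a difference of 5.96 ± 0.28 (adjusted p = 9.58e-07). Plin1, which encodes the main coat protein of the adipocyte lipid droplet, stood at 2755, 2841 and 2775 against 79.5, 29.5 and 42.6 CPM. Cfd, which encodes the serine protease adipsin (complement factor D), stood at 11908, 9604 and 10057 against 347, 107 and 157 CPM. On the stromal side, Pdgfra, the receptor that marks fibroblast-like progenitors, read 6.61, 13.1 and 4.98 CPM in adipocytes and 573, 586 and 772 CPM in stromal vascular cells (-6.21 ± 0.31, adjusted p = 1.29e-06). Vwf, the endothelial von Willebrand factor, read 2.89, 4.72 and 5.76 against 425, 552 and 637 CPM. Mrc1, the mannose receptor of tissue macrophages, read 5.37, 15.5 and 7.61 against 369, 333 and 409 CPM. No adipocyte library overlapped a stromal vascular library for any of these 6 genes.

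Vwf also had the largest called difference toward the stromal side (-6.64), followed by the matrix genes Dcn (-6.36), Fndc1 (-6.33), Mmp2 (-6.31), Fbn1 (-6.24), Aebp1 (-6.22), Lum (-6.14) and Timp2 (-6.09), the endothelial gene Plvap (-6.28), and Pdgfra, Cd248 (-6.07) and the growth factor gene Igf2 (-6.05). Toward the adipocyte side, Adrb3, the beta-3 adrenergic receptor through which catecholamines start lipolysis, led with 576, 532 and 510.1 CPM against 14.8, 3.996 and 6.61 CPM (6.00 ± 0.38). It was followed by Adipoq, Tmem45b (5.95), Glb1l2 (5.91), Plin1, Cfd, the amino acid transporter gene Slc7a10 (5.83), the FGF21 co-receptor gene Klb (5.78), Lep (5.77), the activin-type receptor gene Acvr1c (5.77), Retn (5.75) and the thyrotropin receptor gene Tshr (5.74). The low values of the adipocyte-side genes shared an order: stromal vascular library 1 was the highest of the 3 for each of them except Lep.

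**Figure D2:**
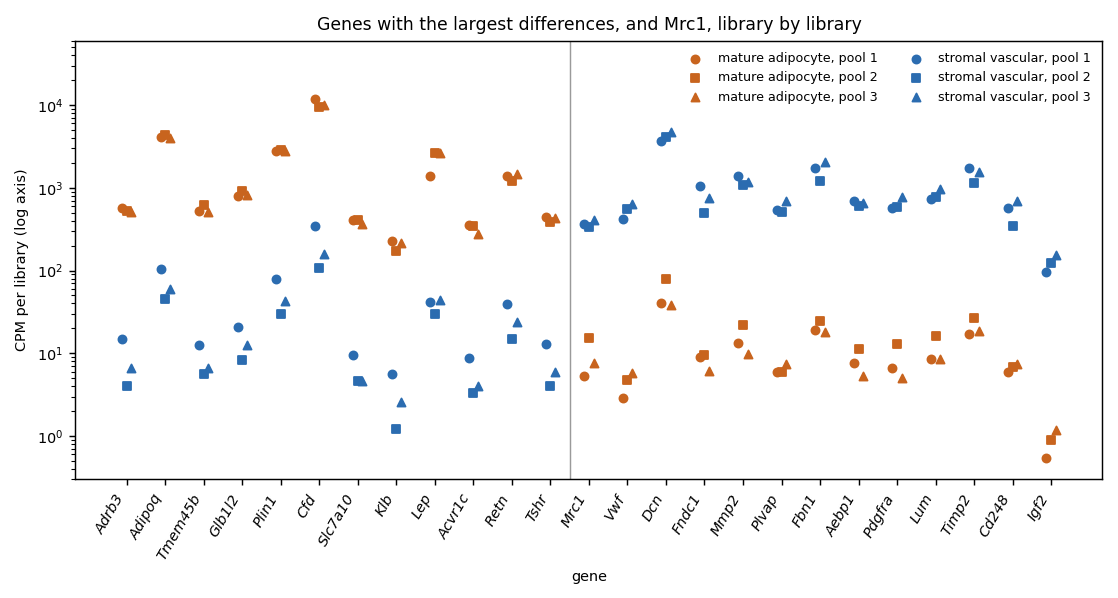
CPM in each of the 6 libraries (log axis; symbols mark the pool number) for the 12 genes per direction with the largest called differences, and for Mrc1. Every gene shows a gap of more than 10 times between the fractions, and Igf2 is the gene with the lowest adipocyte values, 0.537, 0.883 and 1.20 CPM.

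Genes were ranked by CPM per kb of merged exons, a length that joins all annotated exons of a gene. It can exceed the length of the transcript present and so lower a gene's place, and the ranks are rough. Fabp4, for one, was divided by 4.489 kb. By this measure the highest level in mature adipocytes was that of Scd1, the desaturase that makes monounsaturated fatty acids, at 12443 CPM per kb. Cfd at 11413 and the carbonic anhydrase gene Car3 at 9878 followed. Gsn, encoding the actin-severing protein gelsolin, came next there (6567 CPM per kb) and first in stromal vascular cells (4315 CPM per kb). B2m, Fabp4 and Gsn stood among the 10 highest genes of both fractions. In stromal vascular cells the list went on with the matricellular gene Sparcl1 (1141 CPM per kb), the collagen gene Col3a1 (1106), the translation elongation factor gene Eef1a1 (1104) and Cd74, the invariant chain of antigen presentation (1096). A difference in Gsn of 0.59 was called toward adipocytes but turned to -1.49 under quantile normalization, and its call was lost without adipocyte library 2 (0.41, adjusted p = 0.066), stromal vascular library 2 (0.47, adjusted p = 0.109) or stromal vascular library 3 (0.63, adjusted p = 0.058).

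Promoter sequences were set beside these differences. At least 1 window of 250 bases before a transcription start (RefSeq, GRCm38.p6) was found for 10337 of the genes tested, with 13204 windows in all. For a gene with several windows the highest CpG count was taken, and a motif counted if any window held it. The 300 largest differences on each side among these genes had fewer CpG dinucleotides by this count (median 12 on the adipocyte side and 10 on the stromal side) than all genes with a window (median 17). Both strands were searched for 4 motifs: TTGCNNAA for C/EBP factors, GAGGAAGT for the myeloid factor PU.1, the TATA box as TATAAA, and CCGGAA for ETS factors. The last shares the letters GGAA with the PU.1 motif, and neither contains the other. The C/EBP motif was found for 9.16% of all genes with a window, 13.7% of the 300 on the adipocyte side, 9.33% of the 300 on the stromal side and 16.7% (4 of 24) of the macrophage and other myeloid genes listed below. Over all called genes with a window it was in 9.52% on the adipocyte side and 9.31% on the stromal side, near the share of all genes. The PU.1 motif was in 2.92% of all, 1.33% on the adipocyte side, 5.67% on the stromal side and 12.5% (3 of 24) of the myeloid genes, and over all called genes 2.40% and 3.38%. TATAAA was in 7.93% of all, 8.0% and 15.0% of the adipocyte and stromal sets and 25.0% of the myeloid genes, while CCGGAA was in 24.2% of all and in 14.3% and 8.0% of the sets. These shares are descriptions, and a match is not a binding site.

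Windows with a match are shown for an adipocyte droplet gene, the leptin gene, an endothelial gene and a macrophage gene, 5′ to 3′ on the strand of the gene, with the matched letters in capitals. Plin1 (chr7:79732777-79733026, minus strand) had 2 C/EBP matches, starting 187 and 58 bases before the start, in a window with 1 CpG. Lep (chr6:29059971-29060220, plus strand) had 1 C/EBP match at 55 bases. Eng, encoding the endothelial co-receptor endoglin (chr2:32646345-32646594, plus strand), had 1 PU.1 match, on the opposite strand, at 53 bases. C1qc, a chain of complement C1q made by macrophages (chr4:136892915-136893164, minus strand), had 1 PU.1 match on the opposite strand at 195 bases.
Plin1: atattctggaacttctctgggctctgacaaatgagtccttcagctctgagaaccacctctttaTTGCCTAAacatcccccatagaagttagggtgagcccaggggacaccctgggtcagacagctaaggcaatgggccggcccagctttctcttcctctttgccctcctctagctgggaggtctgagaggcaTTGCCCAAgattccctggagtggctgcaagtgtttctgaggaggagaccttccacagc
Lep: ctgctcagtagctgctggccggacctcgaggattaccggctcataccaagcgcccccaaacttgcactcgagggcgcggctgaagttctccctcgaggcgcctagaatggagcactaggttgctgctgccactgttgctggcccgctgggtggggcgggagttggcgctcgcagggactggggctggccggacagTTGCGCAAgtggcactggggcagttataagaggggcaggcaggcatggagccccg
Eng: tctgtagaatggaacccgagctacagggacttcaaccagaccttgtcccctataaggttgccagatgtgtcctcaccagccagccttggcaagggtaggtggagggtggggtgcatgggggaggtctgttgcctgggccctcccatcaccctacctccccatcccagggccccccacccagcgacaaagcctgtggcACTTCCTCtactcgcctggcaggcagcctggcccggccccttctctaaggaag
C1qc: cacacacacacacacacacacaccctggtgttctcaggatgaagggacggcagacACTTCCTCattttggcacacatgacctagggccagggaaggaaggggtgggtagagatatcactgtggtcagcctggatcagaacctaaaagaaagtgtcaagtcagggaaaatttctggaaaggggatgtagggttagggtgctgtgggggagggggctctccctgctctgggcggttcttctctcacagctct

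Secreted adipocyte products were the next group. Of 20 tested genes of the adipokine list, 14 were higher in adipocytes, 3 were higher in stromal vascular cells and 3 were not called (list median 2.92 against -0.44 for all genes). Lep, the satiety hormone leptin, read 1382, 2628 and 2651 CPM in adipocytes and 41.6, 29.8 and 43.9 CPM in stromal vascular cells, and adipocyte pool 1 was lower than the other 2. Retn (resistin) read 1383, 1222 and 1469.7 against 39.2, 14.9 and 24.2 CPM. Hp (haptoglobin, 5.69 ± 0.23), Rbp4 (retinol-binding protein, 5.15 ± 0.28), Orm1 (an acute-phase glycoprotein, 5.04 ± 0.31) and the imprinted gene Nnat (5.58 ± 0.27) were also high in adipocytes. Angptl8, an insulin-responsive inhibitor of lipoprotein lipase that the table lists as Gm6484, spread widely among the adipocyte pools, 85.4, 9.27 and 19.4 CPM, yet was called (3.64 ± 0.80, adjusted p = 0.0038). Angptl4, a lipoprotein lipase inhibitor induced by fasting, read 406, 859 and 536 against 104, 274 and 149.8 CPM, with pool 2 the highest in both fractions. Sfrp5, a secreted Wnt antagonist, was not called (1.78 ± 0.75, adjusted p = 0.059) at 22.9, 196 and 85.9 against 11.1, 28.7 and 27.1 CPM, the adipocyte pools spanning a wide range. With the pool number as a replicate block its adjusted p was 0.005, and without adipocyte library 1 the difference was 2.60 (adjusted p = 0.004).

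Adipokines were not all on the adipocyte side. Apln, encoding apelin, was 16.95 times as high in stromal vascular cells (5.91, 4.42 and 3.55 against 90.7, 90.1 and 54.6 CPM), Metrnl, encoding meteorin-like, 11.8 times as high, and Lcn2, encoding lipocalin 2, 7.87 times as high. Nampt, which makes a precursor of NAD, differed little (0.73 ± 0.11), and Ctsl (-0.07 ± 0.10, adjusted p = 0.532) and Fstl3 (0.63 ± 0.30, adjusted p = 0.09) were not called. Fstl3 was called with the replicate block (adjusted p = 0.0029) and without adipocyte library 1 (0.84, adjusted p = 0.043).

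Genes of the lipid droplet and of lipolysis, by which stored triglyceride is coated, cut and released, were higher in adipocytes for 17 of 22 tested (median 3.14). Beside Plin1, the coat gene Plin4 read 3256, 4357 and 4169 against 116, 68.7 and 87.7 CPM and the droplet fusion gene Cidec 2239.7, 2844 and 2599.7 against 76.2, 40.2 and 48.5 CPM. Of the lipases acting in turn on triglyceride, diglyceride and monoglyceride, Pnpla2 (ATGL) differed by 3.79 ± 0.12 and Lipe (hormone-sensitive lipase) by 3.77 ± 0.13, alike within their errors, and Mgll (monoglyceride lipase) by 0.90 ± 0.14, at 1682, 2025 and 1673 against 999, 1078 and 820.4 CPM. The ATGL co-activator gene Abhd5 (2.26) and the ATGL inhibitor gene G0s2 (3.69) were both higher in adipocytes. Lpl, the lipase that frees fatty acids from circulating lipoproteins, was abundant in both fractions, 12062, 11580.5 and 10792 CPM in adipocytes and 1324, 1203 and 1639 CPM in stromal vascular cells (3.06 ± 0.15).

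Coat genes found in many cell types behaved differently from Plin1 and Plin4. Plin2 was higher in adipocytes by 1.21 ± 0.22, and Plin3 was not called (0.13 ± 0.09, adjusted p = 0.198) at 62.2, 69.5 and 72.8 against 61.5, 57.3 and 67.2 CPM. Under every other scaling Plin3 was called toward adipocytes. Hilpda, a hypoxia-inducible inhibitor of ATGL, was not called either (0.14 ± 0.18, adjusted p = 0.487; -0.012 without adipocyte library 2). Aqp7, the glycerol channel through which adipocytes release glycerol, was lower in the adipocyte fraction, 152, 179 and 157 against 350.5, 344 and 329.9 CPM (-1.07 ± 0.09, adjusted p = 7.79e-06), and the lysosomal lipase gene Lipa was too (-1.13 ± 0.10). Faf2, a droplet-associated ubiquitin-regulating gene, was called at -0.15 (adjusted p = 0.049), a direction that did not hold under every scaling. Its call was lost with the replicate block (adjusted p = 0.083) and when any 1 of the 6 libraries was left out (-0.17 to -0.14, adjusted p = 0.054 to 0.127).

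Genes that make fatty acids and triglyceride were higher in adipocytes for 19 of 23 tested (median 3.77, the highest of the lists with 7 or more genes tested). The list summed to 82969 to 139820 CPM per adipocyte library and to 11137 to 13777 CPM per stromal vascular library. Scd1 alone read 70297, 50658 and 61661 CPM in adipocytes and 3021, 727 and 1335 CPM in stromal vascular cells. Dgat2, which adds the last fatty acid to triglyceride, differed by 5.57 ± 0.45, Pck1, which feeds glycerol synthesis, by 5.54 ± 0.32, the lipogenic regulator Mlxipl (ChREBP) by 5.38 ± 0.42 and Gpd1, which makes glycerol phosphate, by 5.07 ± 0.56. Cd36, the fatty acid uptake receptor that endothelial cells and macrophages also carry, was not called, 3641, 4171 and 4339.9 against 3629, 3922 and 3823 CPM (0.09 ± 0.12, adjusted p = 0.493). Fabp4, the fatty acid carrier often used as an adipocyte marker, was only 2.27 times as high in adipocytes (9435, 9889 and 10068 against 3679, 5044 and 4243 CPM) and lost its call under quantile normalization. Elovl5, which elongates polyunsaturated fatty acids, was higher in stromal vascular cells (-1.28 ± 0.15).

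Lipogenic genes also differed between pools of mice within a fraction. Fasn (fatty acid synthase) read 31397, 6378 and 18340.0 CPM in adipocyte pools 1, 2 and 3 and 1274, 187 and 519 CPM in stromal vascular pools 1, 2 and 3: in both fractions pool 1 was highest and pool 2 lowest. Acly, which makes the acetyl-CoA for fatty acids, read 4063, 579 and 2201 CPM in adipocytes, Elovl6 854, 108 and 432, Acaca (acetyl-CoA carboxylase) 1818, 433 and 1208, Thrsp 2412, 706 and 1429 and Me1 (malic enzyme) 1081, 376 and 706 CPM, all in the same order. The highest adipocyte library was at least 2 times the lowest for 11 of the 23 synthesis genes at a mean of 5 CPM or more, against 291 of 9875 such genes overall (2.95%). In the droplet list this held for 1 of 22 genes. Because of this spread, standard errors in the synthesis list reached 0.80 (Fasn), and Acacb, the mitochondrial carboxylase (242, 51.4 and 172 against 106, 89.9 and 84.7 CPM), and Scd2 (1079, 266 and 924 against 388, 245 and 407 CPM) were not called, with adjusted p = 0.426 and 0.138. Without adipocyte library 2 both were called, at 1.12 and 1.56 (adjusted p = 0.00057 and 0.00071), and Scd2 was called with the replicate block (adjusted p = 0.027). The stromal order of Fasn was also that of genes at least 10 times as high in adipocytes. These stood at medians of 5.52%, 3.49% and 4.47% of the adipocyte mean in stromal vascular libraries 1, 2 and 3. The part of cells or RNA carried between fractions in the stromal order was not tested. The labels give nothing by which the pools differ.

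Genes of other cell types varied between pools as well. Of the tested macrophage genes, 8 of the 9 at a mean of 5 CPM or more in adipocytes varied at least 2-fold there, with adipocyte library 2 the highest: Csf1r read 5.62, 18.5 and 6.72 CPM and Cd74 26.99, 90.03 and 25.3 CPM. In stromal vascular libraries, 14 of 16 tested lymphoid genes and 6 of 9 tested mammary epithelial genes at a mean of 5 CPM or more varied at least 2-fold, against 340 of 11460 tested genes overall (2.97%). Areg, a mammary growth factor gene that did not pass the filter for testing, read 0.179, 7.09 and 11.1 CPM there. Stromal vascular library 3 was the lowest for the B-cell gene Cd79a (39.7, 31.4 and 11.1 CPM) and the T-cell gene Cd8a (19.9, 10.6 and 2.58 CPM), and the highest for the luminal keratin gene Krt8 (20.3, 16.3 and 53.1 CPM). The part of such cells in the lipogenic values was not tested.

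**Figure D3:**
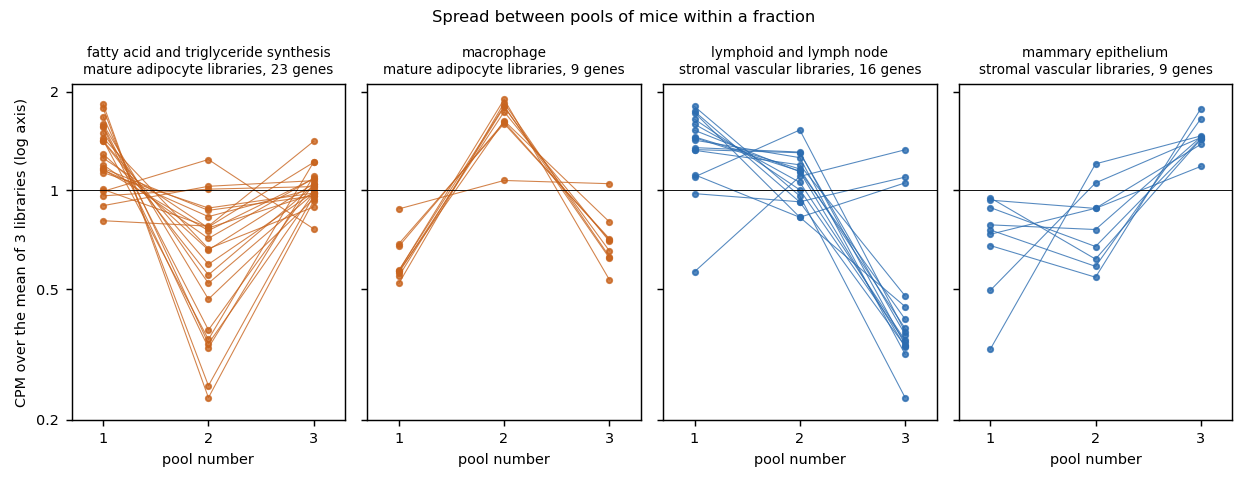
CPM of each gene in pools 1, 2 and 3, divided by the mean of the 3 libraries of that fraction (log axis), for genes with a mean of 5 CPM or more in 4 lists; each line is 1 gene. Lipogenic genes dip in adipocyte pool 2, macrophage genes peak in the same library, lymphoid genes are mostly low and mammary genes high in stromal vascular pool 3.

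Insulin signalling and glucose handling leaned to adipocytes, with 21 of 27 tested genes higher there, 4 higher in stromal vascular cells and 2 not called (median 2.07). Slc2a4, the insulin-regulated glucose transporter GLUT4, read 496, 368 and 420.4 against 32.03, 27.6 and 34.5 CPM, and Trarg1, a GLUT4 trafficking regulator that the table lists as Tusc5, differed by 3.20 ± 0.08. Pde3b, the phosphodiesterase through which insulin restrains lipolysis, differed by 4.36 ± 0.16 and Hk2, the insulin-responsive hexokinase, by 4.25 ± 0.28. Insr itself, the insulin receptor, was 2.05 times as high in adipocytes (339, 335 and 313 against 168, 158 and 156 CPM), and the docking proteins Irs1 (2.20), Irs2 (2.77) and Irs3 (2.97) were higher there too. The glycogen synthase gene of liver, Gys2, was the second largest of the list (4.31 ± 0.58) and spread over pools as the lipogenic genes did, 79.6, 22.7 and 42.3 CPM. Slc2a1 (GLUT1, -1.76), Slc2a3 (GLUT3, -1.28), Hk1 (-2.59) and Akt1 (-1.84) were the 4 genes higher in stromal vascular cells. The glycolytic genes Pfkp (-0.11, adjusted p = 0.469) and Pkm (0.38, adjusted p = 0.073) were not called. Without adipocyte library 2, Pkm was called toward adipocytes (0.57, adjusted p = 0.0026) and the difference of Pfkp turned to 0.047 (adjusted p = 0.615).

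Breakdown of branched-chain amino acids and the citric acid cycle, both mitochondrial, were higher in adipocytes with few exceptions: 25 of 26 tested genes (median 2.40). Pcx, the pyruvate carboxylase that supplies oxaloacetate for citrate export, led at 2952, 1457 and 2342 against 120.4, 27.4 and 56.1 CPM. Aldh6a1 (valine breakdown, 3.76 ± 0.14), Ivd (leucine breakdown, 3.36 ± 0.13) and Mccc1 (leucine breakdown, 3.27 ± 0.10) followed. The first step of the pathway split by gene: Bcat2, the mitochondrial aminotransferase, read 232, 207 and 172 against 31.6, 26.98 and 28.5 CPM, whereas its cytosolic relative Bcat1 was low in both fractions and not called (3.14, 7.81 and 5.56 against 2.42, 3.01 and 4.62 CPM, adjusted p = 0.129; 0.043 with the replicate block, and 0.015 without adipocyte library 1). The smallest called difference of the list was that of Ogdh (1.37 ± 0.08), a subunit gene of the alpha-ketoglutarate dehydrogenase complex.

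Receptors for hormones and metabolites divided between the fractions, 21 of 35 tested genes being higher in adipocytes, 13 in stromal vascular cells and Thra not being called (-0.11, adjusted p = 0.197). The shares over all genes tested were 27.1% toward adipocytes and 55.9% toward stromal vascular cells. Receptors with an effect on lipolysis were high in adipocytes, both those that stimulate it (Adrb3; Mc2r for ACTH, 4.99 ± 0.14; Tshr) and those that inhibit it (Hcar2, a ketone body and niacin receptor, 5.04 ± 0.12; Adora1 for adenosine, 4.92 ± 0.13; Ffar2, 3.26; Ptger3, 2.24). Ghr, the growth hormone receptor gene, read 2038, 2273 and 2756 against 119, 84.9 and 97.1 CPM. Npr3, which clears natriuretic peptides, was 17.2 times as high in adipocytes, while Npr1, which signals for them, was 26.9 times as high in stromal vascular cells (16.3, 14.03 and 12.4 against 404, 367 and 382 CPM). Lepr, the leptin receptor gene, read 0.207, 0.374 and 0.657 against 36.9, 47.8 and 52.8 CPM, so that no adipocyte library reached 1 CPM. Lpar1 (-4.94), the sphingosine phosphate receptor gene S1pr1 (-4.64), Ptger4 (-3.80), Adora2a (-3.64), the incretin receptor gene Gipr (0.455, 0.951 and 0.386 against 12.9, 18.1 and 15.1 CPM) and Adra2a (-2.71) were also higher there. Among nuclear receptors, Esr1 (1.87 ± 0.21) and Thrb (2.29 ± 0.11) were higher in adipocytes and Nr3c2 was higher in stromal vascular cells (-0.85 ± 0.10). Pgr, the progesterone receptor gene, read 6.71, 3.82 and 26.4 CPM in the stromal vascular libraries, highest in library 3, where the mammary genes also peaked, and its part in that result was not tested.

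Transcription factors of the adipocyte programme were higher in adipocytes for 17 of 25 tested (median 1.06), beside 27.1% of all genes tested. Cebpa, which with PPARgamma maintains the adipocyte state, read 1095, 1147 and 1084 against 80.2, 52.6 and 57.7 CPM, a difference of 4.13 ± 0.15. Pparg itself differed less (1.61 ± 0.17, 462, 347 and 483 against 128, 121 and 172 CPM). Klf15 (3.25), Rxrg (2.79), Ppara (2.64) and the coactivator gene Ppargc1a (2.84) were higher in adipocytes. The early adipogenic factor Cebpd (-1.42 ± 0.13) and Ebf2, a progenitor and beige fat factor (-1.54 ± 0.16), were higher in stromal vascular cells, and so were Prdm16 (-0.79 ± 0.09) and Tbx15 (-0.79 ± 0.10). Cebpb, another C/EBP factor gene, was higher in adipocytes at 53.7, 72.1 and 58.1 against 23.7, 23.6 and 19.0 CPM (1.43 ± 0.13). Ebf1 was not called (0.17, adjusted p = 0.16). Stat5b, Tfe3 and Nfib were called toward the stromal side at -0.54, -0.55 and -0.49, differences that did not stay called under every scaling.

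Factors of stromal lineages went the other way for 21 of 24 tested (median -2.94). The progenitor factor gene Osr1 read 0.744, 1.12 and 0.773 against 51.3, 44.4 and 57.6 CPM, the endothelial factor genes Sox18 12.3, 12.4 and 7.22 against 315, 306 and 248 CPM and Fli1 7.98, 8.66 and 5.45 against 219, 236 and 151 CPM, and the myeloid factor gene Spi1, which encodes PU.1, 0.620, 1.83 and 0.502 against 29.5, 33.4 and 28.9 CPM. Gata2 (-4.57) and Erg (-4.52) behaved likewise. Prox1, which specifies lymphatic endothelium, had no read in any adipocyte library and 4.38, 3.10 and 2.87 CPM in the stromal vascular libraries. Zfp423, a determinant of preadipocytes, was the exception, higher in adipocytes at 67.1, 116 and 121 against 48.6, 45.8 and 45.5 CPM (1.06 ± 0.22, adjusted p = 0.0026), and Twist1 (-0.18, adjusted p = 0.076) and Tcf7l2 (-0.16, adjusted p = 0.175) were not called. Tcf7l2 was called without stromal vascular library 3 (-0.25, adjusted p = 0.033).

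**Figure D4:**
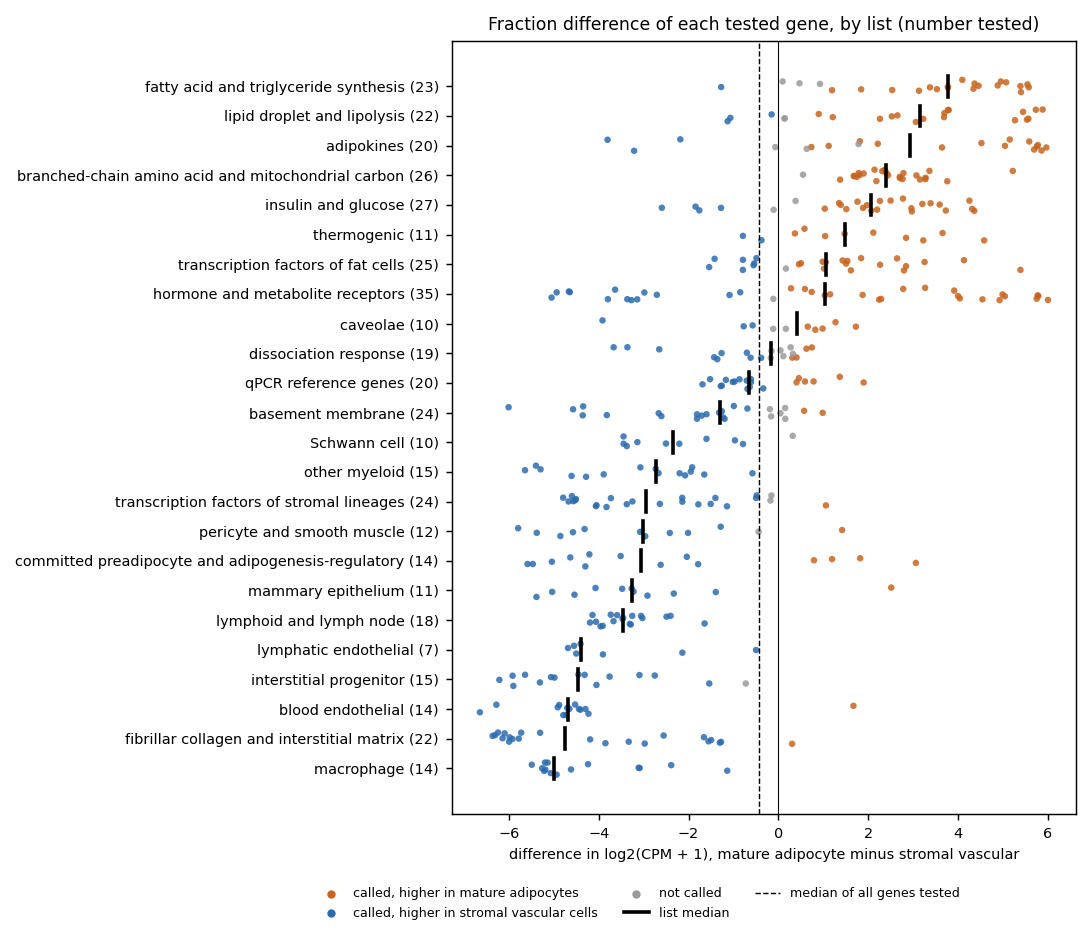
Difference in log2(CPM + 1), mature adipocytes minus stromal vascular cells, of each tested gene in the lists with 7 or more genes tested (points, coloured by call; vertical scatter within a row carries no value), with list medians (bars) and the median of all genes (dashed line). Fatty acid synthesis, lipid droplet and adipokine genes lie farthest to the right and macrophage, fibrillar matrix and blood endothelial genes farthest to the left, while receptor and fat cell factor lists spread across 0.

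Interstitial matrix genes were higher in stromal vascular cells for 21 of 22 tested (median -4.75). Dcn, the collagen-binding proteoglycan decorin, read 40.01, 79.9 and 38.2 CPM in adipocytes and 3725, 4138 and 4687 CPM in stromal vascular cells, and fibronectin (Fn1) read 43.8, 65.03 and 56.8 against 4389, 2272 and 3794 CPM. Genes for the fibrillar collagens themselves separated less and unevenly. Col1a2 differed by -4.19 ± 0.32, Col3a1 by -2.98 ± 0.19 (1375, 1362 and 1302 against 8990.0, 9232 and 14348 CPM), and Col1a1, whose product joins that of Col1a2 in type I collagen, by only -1.56 ± 0.21 (721, 1083 and 1028 against 2438, 2390.0 and 3515 CPM). Col5a1 (-1.50), Col5a2 (-1.31) and Col5a3 (-1.28) were likewise within 1 to 2 log2 units. Col1a2 in adipocytes was at 5.68% of its stromal level, Col1a1 at 33.9% and Dcn at 1.26%. Lox, the collagen cross-linking enzyme gene, was slightly higher in adipocytes (0.30 ± 0.11, adjusted p = 0.035), a call lost when any 1 library other than adipocyte library 1 was left out (0.20 to 0.34, adjusted p = 0.054 to 0.111).

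Basement membrane genes, for the sheet that surrounds each adipocyte and each vessel, differed less than interstitial matrix genes: 17 of 24 tested were higher in stromal vascular cells, 2 in adipocytes and 5 were not called (median -1.29). Over all genes tested, 55.9% were higher in stromal vascular cells and 27.1% in adipocytes. Col4a1 read 2074, 2346 and 2694 against 5445, 5042 and 5785 CPM, and Lamc1 545, 634 and 694 against 1503, 1409.6 and 1560.4 CPM. Col15a1 (1280.3, 1177 and 1237 against 1167, 1103 and 1322 CPM, 0.04, adjusted p = 0.709), Lama4 (0.15, adjusted p = 0.309), Sparc (-0.19, adjusted p = 0.25), Col18a1 (-0.16, adjusted p = 0.465) and Lamb3 (0.15, adjusted p = 0.647) were the 5 not called. Nid2 (0.57 ± 0.09) and the laminin receptor gene Itga7 (0.98 ± 0.13) were higher in adipocytes. The laminin chains were split, Lama2 reading 10.3, 20.7 and 13.2 against 930.5, 913 and 1091 CPM (-6.01 ± 0.23) where Lama4 was not called on CPM. The difference in Nid1 (-0.69) was not called in the same direction under every scaling.

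Caveolae, membrane pits abundant in both adipocytes and endothelium, gave a mixed list, 5 of 10 tested genes being higher in adipocytes, 3 in stromal vascular cells and 2 not called (median 0.41). Among all genes tested, 27.1% were higher in adipocytes and 55.9% in stromal vascular cells. Cav1 read 2600.4, 3199 and 3262 against 1637, 1731 and 1739 CPM. Cavin2, listed as Sdpr, was not called (675, 856 and 695 against 793, 851 and 759 CPM, adjusted p = 0.367), nor was Pacsin3 (0.16, adjusted p = 0.119). Cavin4, better known from muscle and listed as Murc, was low but higher in adipocytes (2.48, 3.53 and 2.51 against 0.224, 0.135 and 0.109 CPM).

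Progenitors of fat have been described as an interstitial, Dpp4-expressing population and a more committed, Icam1-expressing one. Interstitial progenitor genes were higher in stromal vascular cells for 14 of 15 tested (median -4.45). Pi16 read 6.78, 6.29 and 5.72 CPM in adipocytes and 593, 244 and 575 CPM in stromal vascular cells, and Dpp4 2.15, 5.13 and 2.47 against 169, 86.4 and 167 CPM, both with stromal vascular library 2 lowest. Thy1 (-5.90 ± 0.19) and Cd34 (-5.64 ± 0.16) were even across the stromal pools. Sema3c was the member not called (73.7, 106 and 94.1 against 211, 81.9 and 194 CPM, adjusted p = 0.093), and it was called without stromal vascular library 2 (-1.16, adjusted p = 0.00046). The committed preadipocyte list gave 10 of 14 genes higher in stromal vascular cells and 4 higher in adipocytes (median -3.07). The shares over all genes tested were 55.9% and 27.1%. Icam1 read 2.44, 3.91 and 2.39 against 122, 141 and 117 CPM, Gdf10 1.36, 1.43 and 1.31 against 106, 94.6 and 142 CPM and Dlk1, an inhibitor of adipogenesis lost on differentiation, 0.0827, 0.0679 and 0.116 against 11.5, 9.65 and 13.3 CPM. The 4 higher in adipocytes were Lpl, Fabp4, Igf1 (491, 503 and 571 against 136, 153 and 153 CPM) and F3 (0.79 ± 0.13), the tissue factor gene that marks an adipogenesis-regulating population.

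Vessel cells were represented in the pellet by their defining genes. Blood endothelial genes were higher in stromal vascular cells for 13 of 14, with Cdh5 (VE-cadherin) at 97.4, 92.3 and 82.6 against 2363, 2564 and 2010.0 CPM, Pecam1 at 58.1, 55.4 and 43.1 against 1384, 1588 and 1406 CPM and Plvap at 5.95, 5.98 and 7.45 against 546, 505 and 690.0 CPM. Rgcc, a cell cycle regulator often listed with capillary endothelium, was the exception, 238, 314 and 265 CPM in adipocytes against 89.7, 83.7 and 80.4 CPM. All 7 lymphatic genes tested were higher in stromal vascular cells, Lyve1 reading 0.909, 0.815 and 0.773 against 45.7, 31.9 and 66.9 CPM, though the low-level gene Foxc2 (-0.50) was not called in that direction under every scaling and lost its call when any 1 library other than adipocyte library 2 was left out (-0.51 to -0.32, adjusted p = 0.064 to 0.112). Of 12 pericyte and smooth muscle genes 10 were higher there, led by Myh11 (-5.79 ± 0.34), Notch3 (-5.38 ± 0.10) and Rgs5 (-4.85 ± 0.16). Mcam, an adhesion gene used as a pericyte marker, was higher in adipocytes (660.4, 856 and 719 against 283, 276 and 272 CPM, 1.42 ± 0.11) and Cspg4, encoding the pericyte antigen NG2, was not called (138, 67.9 and 125 against 136, 147 and 149 CPM, adjusted p = 0.137). The smooth muscle actin gene Acta2 was lower in adipocytes by -1.29 ± 0.41, which did not stay called under every scaling and was lost without adipocyte library 1 (-0.90), adipocyte library 3 (-1.24), stromal vascular library 2 (-1.24) or stromal vascular library 3 (-1.09), with adjusted p = 0.055 to 0.076. Adipocyte library 2 held the most of it, 99.2, 311 and 161 CPM.

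Every one of the 14 macrophage genes (median -5.00), 15 other myeloid genes (median -2.73) and 18 tested lymphoid genes (median -3.46) was higher in the stromal vascular fraction. The complement genes C1qa (4.42, 10.6 and 4.64 against 246, 262 and 267 CPM), C1qb (-5.07) and C1qc (-5.14), Cd163 (-5.19) and the efferocytosis receptor gene Mertk (-1.14, the smallest of the list) were among them. Across the stromal pools 1 of the 14 macrophage genes varied at least 2-fold, and Csf1r, the receptor for the macrophage growth factor, read 382, 366 and 359.6 CPM. The mast cell protease genes Mcpt4 (96.5, 91.7 and 125 CPM), Cma1 (52.1, 55.3 and 71.4 CPM) and Cpa3 (64.99, 57.8 and 81.5 CPM) were the most different of the other myeloid list (-5.64, -5.29 and -5.40). Dendritic cell and neutrophil genes were scarcer, Clec9a reading 3.44, 2.87 and 2.54 CPM and S100a9 4.47, 3.73 and 2.40 CPM. S100a8 (-0.58, adjusted p = 0.042) was not called with the replicate block (adjusted p = 0.073), turned to 0.74 under quantile normalization, and lost its call without adipocyte library 1 or 2 or stromal vascular library 1 or 2 (-0.55 to -0.46, adjusted p = 0.093 to 0.13). Il1rl1, the receptor for IL-33, read 25.6, 24.2 and 28.8 CPM and Gata3, a factor of T and innate lymphoid cells, 22.6, 16.7 and 21.3 CPM. The T-cell and lymph node genes Cd3e, Ccr7 and Glycam1 were highest in stromal vascular libraries 1 and 2 and lowest in 3: Cd3e read 15.4, 13.6 and 3.42 CPM, Ccr7 10.02, 5.30 and 1.93 CPM and Glycam1, a gene of lymph node venules below the level for testing, 9.62, 2.92 and 0.182 CPM.

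Some genes belonged to tissues that inguinal fat lies next to. Mammary epithelial genes were higher in stromal vascular cells for 10 of 11 tested (median -3.27), with Krt19 at 62.9, 40.9 and 94.9 CPM, Krt18 at 36.1, 34.9 and 66.8 CPM and Epcam at 13.5, 16.2 and 25.3 CPM, library 3 being the highest for each. Trp63, used as a basal epithelial marker, was higher in adipocytes (18.1, 15.9 and 25.3 against 1.52, 3.10 and 3.45 CPM, 2.51 ± 0.25), where the basal keratin genes Krt14 (0.0827, 0.170 and 0.116 CPM) and Krt5 (0, 0.238 and 0.193 CPM) were near the level of a few reads. Schwann cell genes were higher in stromal vascular cells for 9 of 10 tested (median -2.36). S100b was not called (6.57, 16.3 and 9.89 against 6.13, 8.80 and 9.52 CPM, adjusted p = 0.358), while Pmp22 (-0.79) and Cdh19 (-0.97) did not stay called under every scaling. Of 12 muscle and red blood cell genes listed, 6 were tested. The skeletal muscle genes went both ways: Acta1 (29.5, 86.8 and 47.5 against 1.43, 4.36 and 1.78 CPM), Myl1 (58.5, 45.5 and 48.8 against 3.94, 3.46 and 2.91 CPM) and Tnnc2 (1.41, 1.83 and 1.55 against 0.224, 1.12 and 0.0727 CPM) were higher in adipocytes, while Myh1 (0, 0.0679 and 0 against 1.74, 3.77 and 4.11 CPM, -1.99 ± 0.23) and Tnnt3 (0, 0.476 and 0.0386 against 2.10, 2.38 and 1.56 CPM, -1.38 ± 0.19) were higher in stromal vascular cells. Tnnt3 did not stay called under every scaling. Alas2, the erythroid heme enzyme gene, was higher in stromal vascular cells (0.909, 1.63 and 0.773 against 34.1, 51.4 and 57.9 CPM). Of 6 mesothelial genes 4 were below the level for testing, among them Msln and Wt1.

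The level of one fraction's genes in the other is given by the same lists. For the 371 genes at least 10 times as high in adipocytes, a set chosen by that ratio, the stromal vascular libraries 1, 2 and 3 held a median of 5.52%, 3.49% and 4.47% of the adipocyte mean, and library 1 was the highest of the 3 for 239 genes. For the 2455 genes at least 10 times as high in stromal vascular cells, adipocyte libraries 1, 2 and 3 held a median of 2.54%, 3.82% and 2.45% of the stromal mean, and library 2 was the highest for 1441. The lists differed: adipocyte libraries held a median of 1.56%, 4.91% and 1.99% of the stromal level of macrophage genes, 4.15%, 3.89% and 3.43% for blood endothelial genes and 2.05%, 3.02% and 2.000% for interstitial progenitor genes. The part of cells or RNA carried from one fraction into the other was not tested, and it bears on low values in this text, such as those of endothelial genes in adipocytes and of adipocyte genes in stromal vascular cells.

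Related genes with alike products were paired to see which member each fraction held, 26 pairs having both members tested. The members were called in opposite directions in 8 pairs, and in 11 both were higher in adipocytes. Of all genes tested, 27.1% were called toward adipocytes and 55.9% toward stromal vascular cells, so unrelated genes would also often be called in opposite directions. The count of such pairs was not tested against these shares. Glucose transport divided into Slc2a4 on the adipocyte side (3.72 ± 0.13) and Slc2a1 on the stromal side (-1.76 ± 0.16). Hexokinase divided into Hk2 (354, 185 and 242 against 16.4, 8.93 and 12.5 CPM) and Hk1 (23.3, 39.1 and 36.2 against 192, 209 and 196 CPM), and the kinase Akt into Akt2 (307, 299.9 and 291 against 76.2, 63.8 and 72.4 CPM) and Akt1 (71.1, 86.5 and 84.01 against 282, 300.2 and 289.8 CPM). The widest division was that of the cyclic nucleotide phosphodiesterases, Pde3b at 570.4, 617 and 557 against 36.1, 24.2 and 23.4 CPM and Pde3a at 1.28, 1.70 and 1.35 against 71.97, 74.1 and 81.4 CPM. The insulin receptor family divided into Insr and Igf1r (12.7, 18.3 and 13.4 against 162, 150.1 and 138 CPM). Lpin1, a phosphatidate phosphatase gene, was higher in adipocytes (3.13 ± 0.20) and its relative Lpin2 in stromal vascular cells (-1.11 ± 0.11). Prkar2b and Acsl1 were higher in adipocytes (4.43 ± 0.19 and 4.88 ± 0.23), and their partners Prkar2a (-0.41 ± 0.07) and Acsl4 (-0.42 ± 0.08) were called the other way, but not under every scaling.

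Pairs on one side included Dgat2 (5.57) with Dgat1 (3.53), the lactate dehydrogenase genes Ldha (2.50) and Ldhb (1.51), the glycogen phosphorylase genes Pygl (2.96) and Pygb (2.44), and Slc1a3 (4.54) with Slc1a5 (3.56), amino acid transporter genes. Aqp1, the water channel of endothelium and red cells, was on the stromal side (95.2, 118 and 79.5 against 1921, 2823 and 2203 CPM), as Aqp7 was. Carnitine palmitoyltransferase, which brings fatty acids into mitochondria, was represented by Cpt1a, 20.1, 39.9 and 32.4 CPM in adipocytes against 125, 169 and 124 CPM (-2.18 ± 0.25), while Cpt1b was below the level for testing. Fabp5, the relative of Fabp4, was not called (106, 41.01 and 63.8 against 96.7, 89.3 and 104 CPM, adjusted p = 0.128), but without adipocyte library 1 it was called toward stromal vascular cells (-0.90, adjusted p = 0.0036).

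Signals and their receptors were set side by side for 41 pairs with 35 ligands and 35 receptors or partners. Of the ligands, 12 were higher in adipocytes, 20 in stromal vascular cells and 3 were not called, beside 27.1% and 55.9% of all genes tested. Of 34 receptors or partners tested, 27 were higher in stromal vascular cells and 6 in adipocytes, and C3, listed as the partner of Cfd in the complement cascade and not a receptor, was not called. The difference between the shares of ligands and receptors was not tested. In 10 pairs the ligand was higher in adipocytes and the receptor in stromal vascular cells. The vascular growth factor gene Vegfa read 558, 456 and 355 against 73.7, 34.5 and 61.4 CPM and its receptor genes Kdr and Flt1 69.2, 51.00 and 48.2 against 1386, 1110.0 and 1112 CPM and 32.6, 29.3 and 27.00 against 843, 792 and 791 CPM. Vegfb (2.93 ± 0.10) with Flt1, Angpt1 (1.77 ± 0.13) with Tek (-4.91 ± 0.08), Lep with Lepr (-5.05 ± 0.17), Adipoq with Cdh13, which encodes T-cadherin (-4.62 ± 0.14), Ccl2 (1.48 ± 0.09) with Ccr2 (-4.60 ± 0.34), Igf1 with Igf1r and Nrg4 (4.52 ± 0.26) with Erbb3 (-3.58 ± 0.16) had the same arrangement. Adipoq with Adipor1 did so too, but the difference of Adipor1 (-0.45) was not called that way under every scaling.

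In 5 pairs both members were higher in adipocytes: Adipoq with Adipor2 (889, 907 and 1073 against 164, 177 and 197 CPM), Nrg4 with Erbb4 (5.87, 6.62 and 4.17 against 0.313, 0.0449 and 0.327 CPM), Fgf1 with Fgfr1, Inhbb (1.75 ± 0.12) with Acvr1c, and Hgf (0.62 ± 0.13) with Met (165, 163 and 172 against 29.3, 19.4 and 26.4 CPM). In 19 pairs both were higher in stromal vascular cells, among them Pdgfb (-4.49 ± 0.13) with Pdgfrb (-5.31 ± 0.13), the chemokine gene Cxcl12 (1295, 1188 and 1330.2 CPM in stromal vascular cells) with Cxcr4 (66.3, 71.5 and 36.7 CPM), Kitl (-4.04 ± 0.09) with Kit (-3.43 ± 0.36), Il33 (-4.24 ± 0.27) with Il1rl1 (-4.19 ± 0.15), Apln with Aplnr (-4.54 ± 0.14) and Gas6 with Axl (-5.75 ± 0.24), of which Gas6 (-0.92) did not stay called under every scaling. The macrophage growth factors Csf1 (-1.04 ± 0.13) and Il34 (-1.01 ± 0.17) were 2.08 and 2.06 times as high in stromal vascular cells. Bmp4 (0.455, 1.12 and 0.309 against 16.7, 30.4 and 21.4 CPM) with Bmpr1a (0.89 ± 0.12) and Gdf3 with Acvr1c were the 2 pairs with the ligand on the stromal side and the receptor on the adipocyte side, although Gdf3, at 1.88, 3.14 and 1.27 CPM in stromal vascular cells, did not stay called under every scaling. These are transcript levels, and no signalling was measured.

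**Figure D5:**
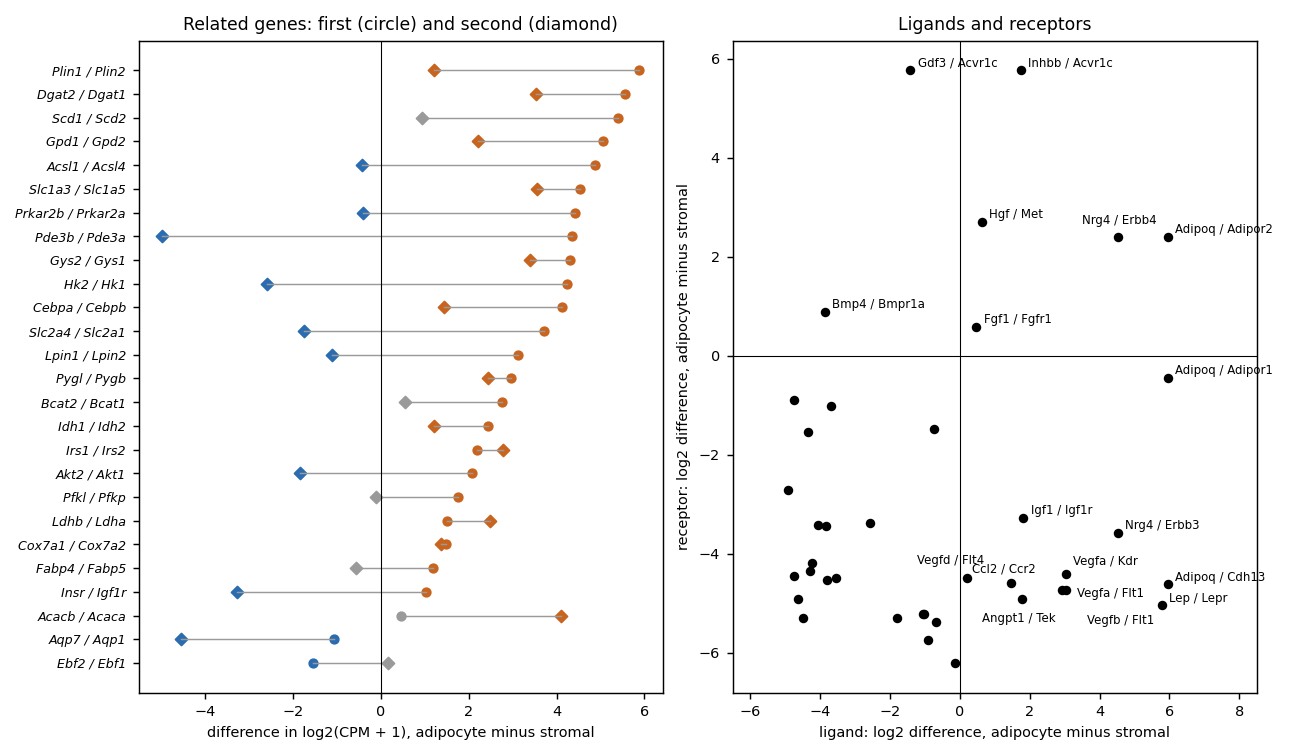
Left: difference in log2(CPM + 1) of the first (circle) and second (diamond) gene of each pair of related genes, coloured by call (orange, higher in mature adipocytes; blue, higher in stromal vascular cells; grey, not called). Right: the difference of the ligand (horizontal) against that of its receptor (vertical) for tested pairs other than Cfd with C3, with names where either is above 0. Most receptors lie below 0, at ligand differences on both sides of it.

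Thermogenic genes, by which brown and beige adipocytes make heat, were higher in adipocytes for 9 of 11 tested (median 1.47), beside 27.1% of all genes tested. Ucp1, the uncoupling protein that defines such cells, was however below the level for testing. It read 3.35, 0.136 and 0.116 CPM in adipocytes, pool 1 being the one above a few reads. Cidea read 28.9, 6.49 and 10.8 CPM and Cox8b 33.4, 20.04 and 22.1 CPM in the adipocyte pools, again highest in pool 1. Slc36a2 (375, 286 and 336 against 15.03, 9.52 and 14.9 CPM) and Kcnk3 (90.4, 44.2 and 68.4 against 14.4, 13.2 and 15.3 CPM) were the most abundant members in adipocytes. Gk, listed as Gyk, differed by only 0.37 ± 0.10, and Ckb was called toward stromal vascular cells (-0.38) but reversed under other scalings.

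Genes used as references in quantitative PCR, assumed to be steady, were all called: 14 of 20 toward stromal vascular cells and 6 toward adipocytes (median -0.67). Of these, 7 and 6 were called in that direction under all 5 scalings. Of all genes tested, 83.0% were called, 55.9% toward stromal vascular cells and 27.1% toward adipocytes. Under all 5 scalings these shares were 34.9% and 27.1%. The list was thus not set apart from other genes by its counts. Hprt was higher in adipocytes (62.1, 67.1 and 71.1 against 42.2, 42.02 and 47.9 CPM, 0.59 ± 0.09), as were, among others, Sdha (1.89 ± 0.09), B2m (0.45 ± 0.12) and Pgk1 (0.78 ± 0.13). Rpl13a (-1.52 ± 0.07), Rplp0 (-0.98 ± 0.08), Ywhaz (-1.28 ± 0.08), Rps18 (-1.26 ± 0.09), Tubb5 (-1.02 ± 0.19), Nono (-0.64 ± 0.07) and Gapdh (-1.69 ± 0.15) were higher in stromal vascular cells. Gapdh read only 4.55, 5.74 and 5.52 against 22.5, 19.7 and 15.9 CPM and Ppia 0.992, 1.09 and 1.31 against 5.28, 3.68 and 2.73 CPM, low for genes of glycolysis and protein folding. Such genes have many near-identical copies among which reads can be split, as Rps18 and Pgk1 do, so these levels are uncertain. Actb (-0.61), Tbp (-0.62), Ppia (-1.17), Gusb (-0.34), Tfrc (-0.87), Polr2a (-0.69) and Eef2 (-0.71) were called toward the stromal side by amounts that did not stay called under every scaling.

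Immediate early and heat shock genes, which tissue dissociation is known to induce, were split, 4 of 19 tested being higher in adipocytes, 9 in stromal vascular cells and 6 not called (median -0.17). Over all genes tested the shares were 27.1% toward adipocytes and 55.9% toward stromal vascular cells. Levels ranged widely within the list. The immediate early genes Egr1 and Fos were abundant in both fractions: Egr1 read 2278, 2807 and 2277 against 2577, 2637 and 1955 CPM (0.04, adjusted p = 0.8) and Fos 1489.6, 1913 and 1487 against 1289, 1359 and 1271 CPM, a difference (0.31) that did not stay called under every scaling, nor when any 1 library other than adipocyte library 1 was left out (0.19 to 0.37, adjusted p = 0.052 to 0.116). The difference of Egr1 was -0.056 without adipocyte library 2 and -0.094 without stromal vascular library 3. Other immediate early genes were higher in stromal vascular cells: Dusp1 (-1.43 ± 0.13), Ier3 (-1.36 ± 0.10) and Junb (-1.27 ± 0.18). Jun (-0.62) and Nr4a1 (-0.70) were called toward that side too, but not under every scaling. The heat shock genes Hspa1b (3.31, 4.52 and 3.82 against 51.7, 61.5 and 70.4 CPM), Hspa1a (-3.36) and Hspb1 (-2.65) were higher in stromal vascular cells, and Myc (0.74 ± 0.12), Socs3 (0.62 ± 0.10) and Atf3 (0.40 ± 0.15) in adipocytes, the call of Atf3 being lost when any 1 library other than stromal vascular library 2 was left out (0.27 to 0.45, adjusted p = 0.057 to 0.119). Hspa1a and Hspa1b are near-identical copies whose reads can be split. What the genes read before digestion is not known from these samples.

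The same fit was made in the 6 libraries labelled Kdm5c+/-, which share no library with the wild-type fit. Kdm5c itself read 158 to 194 CPM over all 12 libraries, and its values in the libraries labelled Kdm5c+/- overlapped those of the wild type, so the level of this transcript does not set the labels apart. In these further pools 10878 of 13755 genes tested (79.1%) were called, and 10170 genes were called in the same direction in both sets, 89.1% of the wild-type calls and 93.5% of those in the pools labelled Kdm5c+/-. The markers differed there by 5.27 (Adipoq), 5.24 (Plin1), 5.34 (Cfd), -6.75 (Pdgfra), -6.99 (Vwf) and -6.46 (Mrc1). Of the 12 largest adipocyte-side differences, chosen by their size in the wild-type pools, 12 were smaller there, Adrb3 at 5.51 and Klb at 4.94. Of the 12 largest stromal-side differences, chosen in the same way, 11 were larger in size there, Fbn1 at -6.88 and Mmp2 at -6.74, and Igf2 was smaller (-5.99). The difference between the sets was tested across 14193 genes and passed the threshold for 0 of them by limma, with 1267 at an unadjusted p under 0.05.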

How the data were processed

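RNA of 12 libraries, of which the 6 wild-type ones are compared here, was sequenced from inguinal fat fractions. Each library pooled tissue of 2 mice, per the labels' protocols, and strand-specific libraries were made with a NuGEN mRNA kit. STAR 2.7.2a, edgeR 3.26.8 and GRCm38 are named in the submitters' processing notes; for the counting tool and annotation nothing is stated in the labels. Deposited values are CPM, scaled by the authors to 1000000 per library over the genes listed. Every value was a whole multiple of 1 read (100% within a tolerance of 0.05 read), so reads were recovered: 22272866 to 29434125 per wild-type library. The precision of a value is that of these reads, for counting error only.

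Genes that reached 1 CPM in 3 or more wild-type libraries were tested with limma 3.58.1 (R 4.3.3; lmFit followed by eBayes, trend and robust options on) on log2(CPM + 1), two-sided, with 1 mean per fraction, Benjamini-Hochberg adjustment over 13745 genes and a threshold of 0.05. Pools may share handling that the labels do not name, so p-values measure the spread between these pools. Deviations from the fraction means of same-numbered libraries correlated at 0.180, 0.188 and 0.242 across genes (differently numbered libraries at -0.153 to -0.0789), and the numbers were taken as pairs, from the data. Because the deviations in a fraction sum to 0, the negative values are tied to the positive ones. Mice shared by number and handling shared by number cannot be told apart this way. The alternatives were a pseudocount of 0.25, quantile and median-of-ratios scaling, no filter, a minimum mean of 5 CPM, a replicate block, edgeR 4.0.16 and DESeq2 1.42.0 on the recovered reads, and leaving out each library. Scripts were tested on simulated data. Symbols came from the deposited table; some current symbols were matched to older ones through RefSeq synonyms, 98.9% matched GENCODE M21 for exon lengths, and 23 symbols turned into dates were not named.

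The rule for named genes took the markers, the 12 largest called differences per direction, up to 4 called members per direction and those not called of each of 26 lists, all members of the paralog and ligand lists, the 10 most abundant genes per kb and all reference genes; the text does not print every one, and some are not reported here. The genes Kdm5c, Glycam1, Krt5, Krt14, Krt18 and others beyond the 4 largest of a list were added after their values were seen. The comparison, members and lists were chosen with earlier results of these data known. Figures were drawn with matplotlib 3.10.9, and tables made with numpy 2.4.6 and pandas 2.3.3 in Python 3.11.15.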

Additional observations from a re-analysis of the deposited data

Results flagged for a closer look

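Called differences between the fractions went in opposite directions in the wild-type pools and in the pools labelled Kdm5c+/- for 4 genes, each with every adipocyte library of a set on one side of its stromal vascular libraries. Car11, encoding a carbonic anhydrase-related protein, differed by -0.47 ± 0.16 (SE, adjusted p = 0.026) in wild-type pools and by 0.53 ± 0.17 (adjusted p = 0.024) in the others, by limma. Gmfb, encoding glia maturation factor beta, differed by 0.23 and -0.25, Tsr1, a ribosome maturation gene, by 0.24 and -0.34, and the zinc finger gene Zfp358 by -0.25 and 0.25. A test of the difference itself, added after the data were seen and run by limma across 14193 genes, gave an adjusted p of 0.445 for each of the 4, with unadjusted p-values of 0.00149 (Car11), 0.000926 (Gmfb), 0.00032 (Tsr1) and 0.0026 (Zfp358), so none passed. Out of 10174 genes called in both sets, 10170 went the same way. All 4 calls in wild-type pools are near the threshold: each lost it without adipocyte library 3, at -0.36 (Car11), 0.17 (Gmfb), 0.18 (Tsr1) and -0.20 (Zfp358). Each also lost it without stromal vascular library 1, all but Tsr1 without stromal vascular library 2, Gmfb and Zfp358 without adipocyte library 2, and Zfp358 without adipocyte library 1. Car11 and Zfp358 also turned positive under other scalings, as given below.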

How the results depend on the processing

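Across 309 of the named genes and 14 alternatives, 4058 of 4308 values kept their direction and their side of the threshold. Of the others, 113 lost the call, 67 gained one with the same sign and 70 changed sign. Direction and side were kept under every alternative by 247 genes. The total of 11413 called genes ranged from 9324 (mean of at least 5 CPM, 11262 genes tested) to 13054 (no filter, 16670 tested). The split by direction depended on the scaling. It was 3729 higher in adipocytes and 7684 higher in stromal vascular cells in CPM, 5432 and 5820 by median-of-ratios scaling, 5476 and 5707 by edgeR, 5353 and 5722 by DESeq2, and 6159 and 5098 by quantile normalization. With 1 library left out at a time, the calls numbered 10905 to 11173, with 3481 to 3631 higher in adipocytes and 7403 to 7602 higher in stromal vascular cells. With the replicate block, which pairs same-numbered libraries, 11390 genes were called, 3711 and 7679 by direction. Among the 309 genes it changed the calls of Bcat1, Fstl3, Scd2, Sfrp5, Faf2 and S100a8 and no other.

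Under median-of-ratios scaling, the difference changed sign for Ckb (0.038), Col18a1 (0.26), Ctsl (0.35), Faf2 (0.26), Gusb (0.079), Kdm5c (0.37), Pfkp (0.31), Prkar2a (0.0055), Cavin2 (0.30), Sparc (0.23), Tcf7l2 (0.26), Thra (0.31), Twist1 (0.23), Zfp358 (0.16) and the median of the dissociation list (0.25). By edgeR on the recovered reads, the difference changed sign for Acsl4 (0.0090), Ckb (0.044), Col18a1 (0.27), Cspg4 (0.059), Ctsl (0.37), Faf2 (0.28), Gusb (0.097), Kdm5c (0.38), Pfkp (0.35), Prkar2a (0.021), Cavin2 (0.33), Sparc (0.25), Tcf7l2 (0.28), Thra (0.32), Twist1 (0.25), Zfp358 (0.18) and the median of the dissociation list (0.27). By DESeq2 on the recovered reads, the difference changed sign for Ckb (0.028), Col18a1 (0.25), Cspg4 (0.047), Ctsl (0.35), Faf2 (0.27), Gusb (0.082), Kdm5c (0.37), Pfkp (0.34), Prkar2a (0.0056), Cavin2 (0.31), Sparc (0.23), Tcf7l2 (0.26), Thra (0.31), Twist1 (0.23), Zfp358 (0.16) and the median of the dissociation list (0.26). Under quantile normalization, the difference changed sign for Car11 (0.68), Cd36 (-0.0076), Col15a1 (-0.19), Egr1 (-0.087), Faf2 (0.21), Foxc2 (0.72), Gsn (-1.49), Gusb (0.018), Kdm5c (0.15), Pfkp (0.17), Ppia (0.18), S100a8 (0.74), Tcf7l2 (0.23), Thra (0.10), Twist1 (0.20) and Zfp358 (0.15). With 1 library left out at a time, the differences that changed sign ranged as follows: Col15a1 (-0.013 to 0.12), Col18a1 (-0.34 to 0.017), Ctsl (-0.13 to 0.0080), Egr1 (-0.094 to 0.12), Hilpda (-0.012 to 0.27), Lamb3 (-0.10 to 0.39) and Pfkp (-0.22 to 0.047). Of the named genes not called on CPM, Bcat1, Ebf1, Fstl3, Hilpda, Pacsin3, Pkm, Plin3 and Sfrp5 were called toward adipocytes under every other scaling. C3, Cd36, Col15a1, Egr1 and Lama4 were so under median-of-ratios scaling, edgeR and DESeq2. S100b was so under quantile normalization, edgeR and DESeq2, and Scd2 by edgeR and DESeq2. Quantile normalization also called Lamb3 toward adipocytes and Sparc toward stromal vascular cells. Differences that changed sign are given above by that change only, whether or not the gene was then called. The cause of these changes was not tested. Lists with fewer than 7 tested genes were given no median under the alternatives. With 3 pools per fraction, and CPM that give each fraction the same total, these data hold relative and not absolute levels per cell. Genes near 1 CPM rest on few reads.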

Other observations

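The annotation splits the tested genes by kind. Of 13252 protein-coding genes, 3565 were higher in adipocytes and 7467 in stromal vascular cells by limma, whereas of 296 long noncoding genes 116 were higher in adipocytes and 115 in stromal vascular cells. The difference between these shares was not tested.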
